A study of Bos taurus with 24 samples.

Results

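The immediate-early genes EGR1, EGR2, EGR3, NAB2, SRF, ARC, IER2, IER3 and IER5 were followed in cultured bovine dermal fibroblasts before and after exposure to lipopolysaccharide (LPS, an outer membrane glycolipid of Gram-negative bacteria). They were chosen by symbol, and each of the 9 symbols was found on 1 row of the 59846 rows of the expression tables, of which 27550 carry a gene symbol. A stretch without a gene symbol that touches EGR3 was described with them. The fibroblasts came from skin biopsies of the shoulder of 4 Holstein heifers, a dairy breed, and 4 Angus heifers, a beef breed. The third-passage cells had been frozen, revived and seeded in 6-well plates, and LPS was added at 100 ng/ml after 48 h. RNA was taken at 0, 2 and 8 h after LPS, which gave 24 samples in 6 groups of 4 (Angus or Holstein at 0, 2 or 8 h). All groups carried the same serum, insulin-transferrin-selenium and antibiotic supplements, and no genotype was altered. The 0 h samples were the only cultures without LPS, so time in the plate and LPS cannot be told apart.

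Immediate-early genes are transcribed within minutes of a stimulus, from promoters that need no new protein to be made first. Signals through the ERK kinases reach the serum response factor SRF and its partner ELK1, which sit on the promoters of the EGR genes and of ARC. The EGR proteins are zinc finger transcription factors, and one of their targets is NAB2, a corepressor that binds EGR proteins and limits their activity. IER2, IER3 and IER5 are induced early after growth factors, stress or inflammatory signals, and IER3 is also a target of NF-κB and protects cells from apoptosis. ARC is best known as an activity-regulated gene of neurons.

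The 24 libraries held 32672866 to 68883145 reads, of which 92.9% to 96.5% were matched to the genome, and 51014538 to 104406293 counts over all rows. A floor of 3 counts was worth 0.0287 to 0.0588 counts scaled to library size (CPM), and covers counting error only. All 9 fibroblast markers examined (among them COL1A1, DCN and VIM) were at 100 CPM or above in all 24 samples. The leukocyte markers PTPRC, CD3E and ITGAM stayed under 1 CPM in all 24, and the summed keratinocyte markers reached at most 13.2 CPM, of which KRT5 gave up to 10.2. That sum was at most 0.291 CPM in any Angus sample, and in Holstein it ran from 0.0661 to 11.1 CPM at 0 h, 0.142 to 10.8 CPM at 2 h and 0.140 to 13.2 CPM at 8 h. High sums were thus found in Holstein only, but not in all Holstein samples. Their part in the breed differences given here was not tested. The response to LPS was present in the libraries, since NFKBIA, which codes for the inhibitor of NF-κB, was at 5.04 to 8.20 CPM at 0 h and 43.6 to 259 CPM at 2 h. In 4 samples each count of COL1A1 stood for 66.2 to 67.1 covered bases, against 111.8 to 119 in the remaining 20. These 4 are called counted otherwise below, which is inferred from this measure and not stated in the sources used here. These were 1 Angus library (animal 4) and 2 Holstein libraries (animals 2 and 4) of 0 h, and the 2 h library of Angus animal 3. At EGR1 the same measure was 94.1 to 94.6 in these 4 samples and 93.3 to 95.5 in the other 20, and at IER2 it was 94.7 to 95.4 against 94.5 to 95.9. The 4 samples reached past the highest of the other 20 at NAB2 (77.6 against 77.4), SRF (76.3 against 75.9) and IER5 (97.1 against 96.8). The same 4 libraries also differed over all rows. Of their reads 96.23% to 96.54% were matched, against 92.88% to 95.25% in the other 20. Their counts per matched read were 1.562 to 1.712, against 1.5 to 1.542.

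On genome build UMD v3.1, EGR1 (gene ID 407125) lies at chr7:51438972-51441815 on the plus strand and IER2 (525380) at chr7:13543659-13545435 on the minus strand. EGR2 (100297981) lies at chr28:19012557-19018282, EGR3 (526233) at chr8:70502499-70506409 and NAB2 (504755) at chr5:56672010-56677995, each on the minus strand. SRF (533039) at chr23:16747958-16755478, ARC (519403) at chr14:2892673-2894998, IER3 (505455) at chr23:28088456-28089723 and IER5 (523618) at chr16:63677269-63691626 are on the plus strand. A row covers the whole gene, with its introns. The gene-free interval on chromosome 8 is 22485 bases long and ends at 70502498, the base before EGR3, which, with EGR3 on the minus strand, is the side where the gene ends. IER3 lies inside the row of BOLA, which spans 826929 bases on the opposite strand, and the counts do not use strand as far as the sources used here state, so reads of one could be counted in the other. BOLA itself was at a log2 fold change of -0.13 ± 0.20 (SE) at 2 h against 0 h (false discovery rate, FDR, 0.741, edgeR).

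Levels below are CPM scaled with trimmed mean of M-values (TMM) factors, and values in a row are those of animals 1 to 4. Fold changes come from edgeR's likelihood-ratio test over all rows, and a gene is called changed only with an FDR under 0.05, a fold change of at least 2 and an average CPM above 1. With the breeds combined, 3 of the 7 members tested at 2 h against 0 h passed (EGR3, IER3 and NAB2, each upward), where 2.82% of all rows tested did. At 8 h against 0 h, 2 of 6 passed (IER3 upward and EGR1 downward), against 1.42% of rows, and at 8 h against 2 h, 4 of 8 passed, each downward (EGR1, EGR3, IER3 and NAB2), against 2.76% of rows. The members that were tested are those at 1 CPM or more in at least 50% of the samples compared. Where the hours were compared, EGR3 and ARC met this only through their 2 h samples, and EGR2 only through 2 h samples and, at 8 h against 2 h, 3 Holstein samples of 8 h, so these counts are no support for a shared change.

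**Figure D1:**
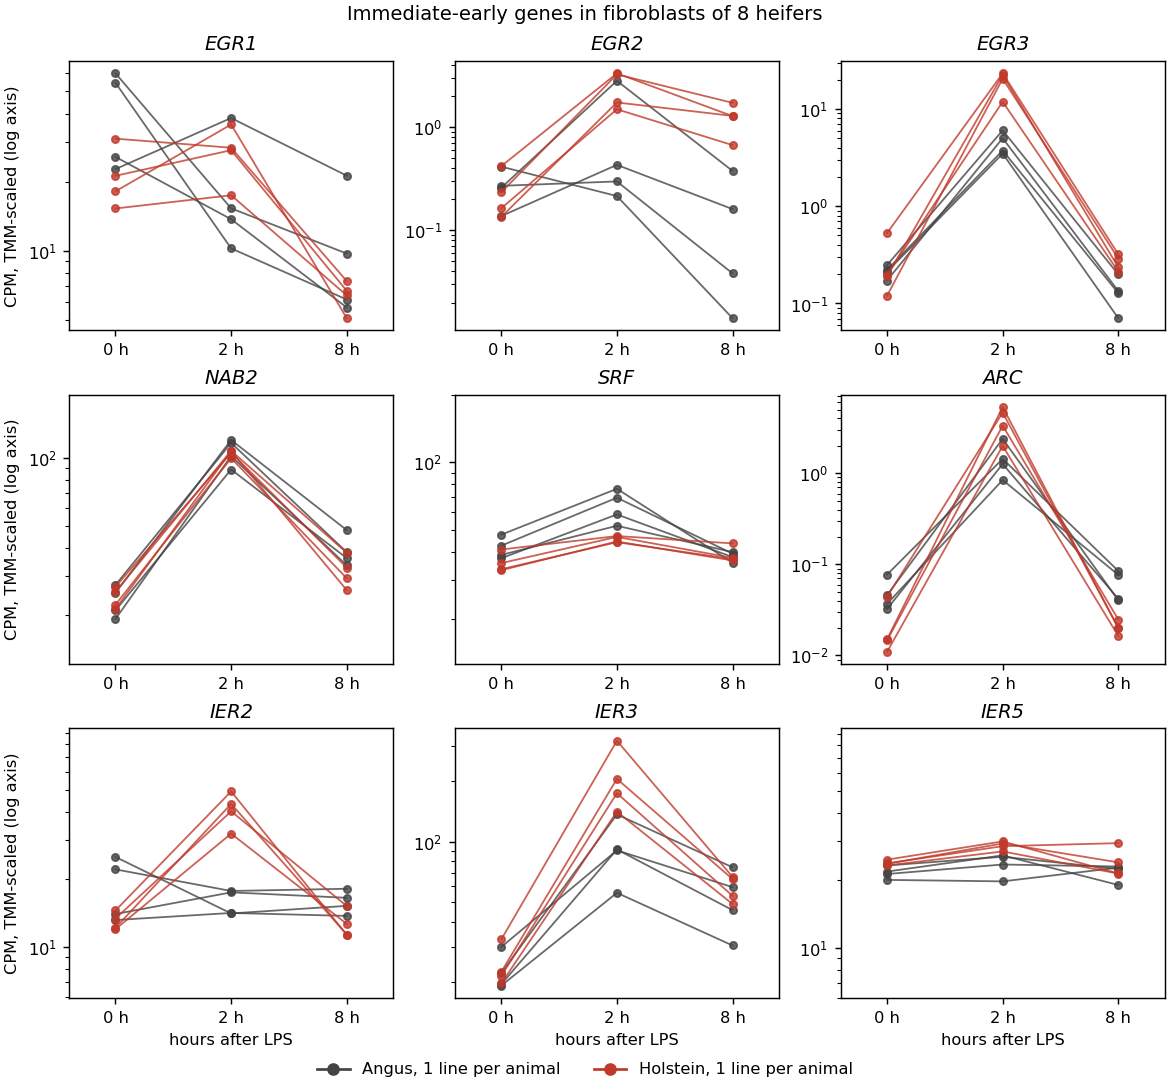
CPM (TMM-scaled, log axis) of the 9 genes in every sample against hours after LPS, with 1 line for each of 4 Angus (grey) and 4 Holstein (red) animals. EGR3 and ARC peaked at 2 h in all 8 animals and were back near their 0 h level at 8 h, NAB2 and IER3 peaked at 2 h and stayed above 0 h at 8 h in all 8, and IER5 stayed between 19.1 and 29.8 CPM throughout.

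EGR3 showed the sharpest pulse of the EGR family. At 0 h it was at 0.221, 0.172, 0.248 and 0.212 CPM in the Angus cultures and 0.120, 0.190, 0.197 and 0.529 CPM in the Holstein cultures. At 2 h after LPS it was at 3.74, 5.00, 6.03 and 3.47 CPM in Angus and 20.5, 22.4, 11.9 and 23.3 CPM in Holstein. All 8 samples at 2 h were above all 8 at 0 h, and the 2 breeds did not overlap at 2 h. The rise with both breeds combined was 5.68 ± 0.44 (SE) on the log2 scale (FDR 3.14e-25), the 9th largest of 20157 rows. By 8 h it had returned to 0.0705 to 0.199 CPM in the Angus cultures and to 0.212 to 0.320 CPM in the Holstein cultures, a fall of 5.90 ± 0.44 on the log2 scale from 2 h (FDR 5.8e-26). At 8 h EGR3 was under the CPM filter, and its difference from 0 h on the log2(CPM + 1) scale was -0.04 (two-sided exact permutation test over 8 animals, p = 0.398).

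The gene-free interval beside EGR3 followed the gene closely. It was at 0.123, 0.103, 0.0863 and 0.164 CPM in Angus and 0.0600, 0.117, 0.0328 and 0.221 CPM in Holstein at 0 h. At 2 h it was at 2.68, 4.01, 5.13 and 2.302 CPM in Angus and 14.8, 15.6, 8.87 and 14.4 CPM in Holstein, so that the animals kept the order they had for EGR3 in Angus but not fully in Holstein. Its rise of 6.23 ± 0.46 on the log2 scale (FDR 4.11e-28) ranked 5th of all rows, and its fall from 2 h to 8 h was 5.90 ± 0.43 (FDR 6.4e-29). At 2 h the interval held 66.3% to 85.1% as many counts as EGR3 in Angus and 62.1% to 74.8% in Holstein. Over the 24 samples the log2(CPM + 1) levels of the 2 rows had a Pearson correlation of 0.998, in which the 8 samples at 2 h form a separate cluster. The interval on the other side of EGR3, where the gene starts, held 42 counts over all 24 samples against 7187 on EGR3 and 5045 on the end-side interval.

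**Figure D2:**
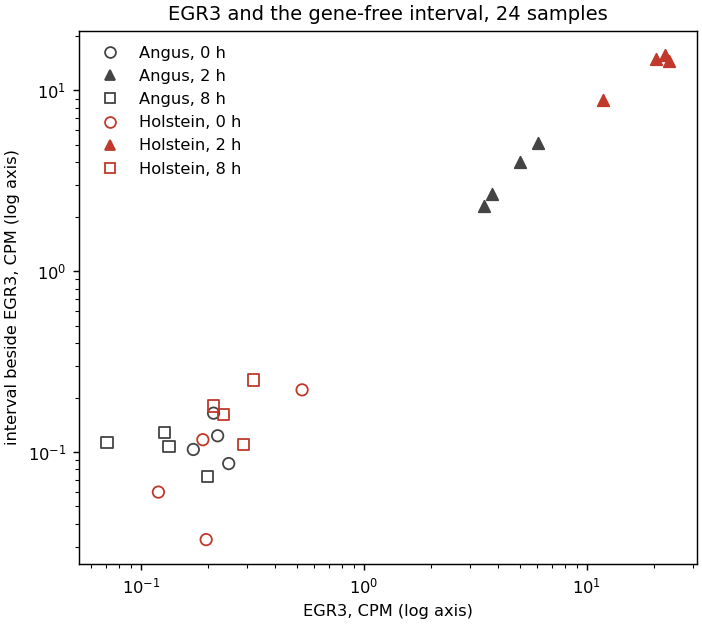
CPM of EGR3 against CPM of the gene-free interval that touches its end, both on log axes, in 24 samples marked by breed (colour) and hour (symbol, filled at 2 h). The 2 h samples lie at 3.47 to 23.3 CPM of EGR3 and 2.302 to 15.6 CPM of the interval, apart from all 0 h and 8 h samples, and the Holstein samples at 2 h lie above the Angus ones on both axes.

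EGR1, the most studied member of the family, did not follow EGR3. At 0 h it was at 60.0, 25.8, 22.9 and 54.6 CPM in Angus and 21.4, 18.3, 15.4 and 31.1 CPM in Holstein. At 2 h it was at 15.4, 13.8, 38.3 and 10.3 CPM in Angus and 27.7, 35.8, 17.6 and 28.3 CPM in Holstein. It was lower at 2 h than at 0 h in 3 of 4 Angus animals and higher in 3 of 4 Holstein animals, the exceptions being Angus animal 3 and Holstein animal 4. With the breeds combined its log2 fold change at 2 h was -0.41 ± 0.33 (FDR 0.446), with -1.07 ± 0.46 in Angus (FDR 0.123) and 0.34 ± 0.26 in Holstein (FDR 0.475). At 8 h it was at 9.75, 5.66, 21.4 and 6.13 CPM in Angus and 6.69, 5.08, 6.39 and 7.38 CPM in Holstein. All 8 animals were below their own 0 h value, and EGR1 fell by 1.86 ± 0.34 on the log2 scale (FDR 4.54e-06), the 4th largest fall of 20368 rows. The fall was 1.93 ± 0.48 in Angus (FDR 0.00604) and 1.75 ± 0.22 in Holstein (FDR 3.45e-12). In Angus it was no longer past the threshold by the quasi-likelihood F test (FDR 0.101) or without animal 1 (FDR 0.2) or animal 4 (FDR 0.135). Angus animal 3, whose 2 h sample is 1 of the 4 called counted otherwise, decided the Angus result at 2 h. Without it EGR1 fell by 1.83 on the log2 scale (FDR 2.63e-06). With the animal as a replicate block and all 4 animals the value was -1.17 (FDR 0.0354). The quasi-likelihood F test with the same block did not call the change (-1.16, FDR 0.0985).

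EGR2 was low at 0 h, at 0.270, 0.138, 0.259 and 0.415 CPM in Angus and 0.135, 0.234, 0.164 and 0.419 CPM in Holstein. At 2 h the 4 Holstein cultures reached 1.74, 3.25, 1.49 and 3.32 CPM, whereas the Angus cultures were at 0.298, 0.431, 2.81 and 0.215 CPM. Angus animal 3 was the only Angus culture within the Holstein range. In Holstein the rise was 3.40 ± 0.41 on the log2 scale (FDR 3.17e-13). In Angus the row was under the CPM filter, and the difference on the log2(CPM + 1) scale was 0.44 (exact permutation test over 4 animals, p = 0.375, where the smallest possible is 0.125). With the 8 animals combined it was 0.94 (exact permutation test, p = 0.0234). EGR2 remained high in Holstein at 8 h, at 1.29, 1.72, 0.670 and 1.28 CPM, when the Angus cultures were at 0.0383, 0.161, 0.377 and 0.0141 CPM. The breeds did not overlap at 8 h, and the difference of 0.95 on the log2(CPM + 1) scale had the smallest p that 4 against 4 can give (two-sided exact permutation test, p = 0.0286, unadjusted). The change from 0 h to 8 h also differed between breeds, by 0.99 on the same scale (exact permutation test, p = 0.0286, again the smallest possible). Without a filter on low counts, edgeR gave Holstein 3.03 above Angus at 8 h on the log2 scale (FDR 0.0019), with an average level under 1 CPM, while the difference of the 8 h changes, 3.24, did not pass (FDR 0.171).

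NAB2, the corepressor of EGR proteins, rose to a similar level in every culture. Before LPS its level was 19.2 to 27.3 CPM in the Angus and 21.3 to 26.7 CPM in the Holstein cultures. At 2 h it was at 120.5, 102.2, 89.0 and 117.0 CPM in Angus and 107.9, 107.5, 100.1 and 105.8 CPM in Holstein. All 8 animals were 3.96-fold to 5.32-fold above their own 0 h value. The rise was 2.17 ± 0.091 on the log2 scale, and its FDR of 9.45e-111 was that of a row with very little spread between animals. It was 2.21 ± 0.16 in Angus (FDR 1.2e-37) and 2.13 ± 0.099 in Holstein (FDR 9.38e-93). The difference of these responses was -0.06 ± 0.18 (FDR 1.0), and that of the 2 h levels -0.03 ± 0.12, so that a 2-fold breed difference in either direction lay more than 4 SE away. NAB2 was still at 25.8 to 47.8 CPM at 8 h, above the 0 h value in all 8 animals, with a log2 fold change of 0.57 ± 0.12 (FDR 4.76e-05) that did not reach 2-fold.

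SRF, the transcription factor that binds the promoters of many immediate-early genes, moved little. In Angus it was at 42.6, 37.4, 38.7 and 47.6 CPM at 0 h and 69.6, 58.6, 52.2 and 76.3 CPM at 2 h. In Holstein it was at 40.9, 33.1, 35.6 and 33.4 CPM at 0 h and 47.0, 44.4, 46.6 and 44.1 CPM at 2 h. All 8 animals were higher at 2 h than at 0 h, and the breeds did not overlap at 2 h. The log2 fold change was 0.50 ± 0.13 with both breeds (FDR 0.000865), 0.62 ± 0.15 in Angus (FDR 0.000922) and 0.34 ± 0.096 in Holstein (FDR 0.0032), each under 2-fold. At 2 h Holstein was lower by 0.50 ± 0.14 on the log2 scale (FDR 0.00372), the only member besides NAB2 with a fitted 2 h value below that of Angus, but the responses did not differ past the threshold (-0.27 ± 0.17, FDR 1.0). At 8 h SRF was at 35.7 to 43.6 CPM, with a log2 fold change of -0.01 ± 0.084 from 0 h (FDR 0.954).

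ARC was close to the limit of detection before LPS, with 18 counts over the 4 Angus samples and 5 counts over the 4 Holstein samples at 0 h. At 2 h it was at 0.844, 2.39, 1.27 and 1.44 CPM in Angus (471 counts) and 5.34, 3.34, 2.00 and 4.64 CPM in Holstein (1083 counts). Every 2 h sample was above every 0 h and 8 h sample. The ratio of summed counts at 2 h to 0 h was 30.7 in Angus (95% exact counting interval 19.2 to 52.2) and 207 in Holstein (88.6 to 640). These intervals hold counting error only, leave out the spread between animals and do not test the breeds against each other. The ratios of single animals ran from 18.69 to 52.11 in Angus and from 105.3 to 356.5 in Holstein. Across the 8 animals the rise on the log2(CPM + 1) scale was 1.70 (exact permutation test, p = 0.0078, the smallest possible with 8 animals). In Holstein, where the row could be fitted, the log2 fold change was 7.54 ± 0.73 (FDR 1.7e-38), a value that depends on the few counts at 0 h. At 8 h ARC was back at 19 counts in Angus and 7 counts in Holstein, and at 0.0402 to 0.0846 and 0.0163 to 0.0248 CPM the breeds did not overlap (exact permutation test, p = 0.0286, difference -0.06 on the log2(CPM + 1) scale, within a few counts of the floor), a difference that edgeR without the filter did not call (FDR 0.148).

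IER2, a nuclear protein induced early after growth factors, rose in Holstein but not in Angus. In Holstein it was at 13.4, 12.2, 12.0 and 14.5 CPM at 0 h and at 40.2, 43.3, 31.9 and 49.3 CPM at 2 h, a rise of 1.66 ± 0.15 on the log2 scale (FDR 1.78e-26). In Angus it was at 22.1, 13.2, 14.0 and 25.2 CPM at 0 h and at 17.7, 14.2, 17.5 and 14.1 CPM at 2 h, with a log2 fold change of -0.23 ± 0.23 (FDR 0.652). The 4 Holstein samples at 2 h stood above the other 20 samples. The difference between the 2 responses was tested directly and was 1.90 ± 0.28 on the log2 scale (FDR 7.89e-08). At 8 h the 4 Holstein cultures had 11.3 to 15.2 CPM of IER2 and the Angus cultures 13.7 to 18.2 CPM, where the fitted changes from 0 h were -0.04 ± 0.13 and -0.23 ± 0.23. With the breeds combined the 2 h change of 0.85 ± 0.28 (FDR 0.0171) stayed under 2-fold. It passed 2-fold without Angus animal 1 (1.01) or Angus animal 4 (1.08), and the fall from 2 h to 8 h of 1.00 ± 0.26 (FDR 0.00149) lay just under the 2-fold line, past which 8 of the other settings put it.

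IER3, the member known as a target of NF-κB, rose in both breeds and stayed up. At 0 h it was at 29.9, 19.6, 22.2 and 19.2 CPM in Angus and 21.5, 22.5, 19.7 and 32.6 CPM in Holstein. At 2 h it was at 90.5, 91.4, 136.5 and 55.7 CPM in Angus and 174, 205, 140.9 and 317 CPM in Holstein. The lowest Holstein culture was above the highest Angus culture, by a small margin. The rise was 2.69 ± 0.28 on the log2 scale with both breeds (FDR 6.18e-18), 2.04 ± 0.27 in Angus (FDR 3.97e-11) and 3.12 ± 0.26 in Holstein (FDR 3.54e-26). At 8 h IER3 was at 59.4, 45.7, 74.6 and 30.5 CPM in Angus and 53.8, 65.1, 49.0 and 66.8 CPM in Holstein. It remained 1.24 ± 0.17 above 0 h on the log2 scale (FDR 1.07e-10), with 1.21 ± 0.27 in Angus (FDR 0.00137) and 1.29 ± 0.18 in Holstein (FDR 1.49e-10). In Angus the 8 h call was lost by the quasi-likelihood F test (FDR 0.0659), and without animal 3 the value was 0.98 (FDR 0.0325), just under 2-fold.

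IER5 did not change past the threshold in any of the 12 comparisons. Its 0 h level ranged from 20.1 to 23.3 CPM in the Angus and from 23.3 to 24.7 CPM in the Holstein cultures, and its 2 h level from 19.8 to 25.8 and from 26.9 to 29.8 CPM. The largest of its LPS changes was 0.26 ± 0.086 on the log2 scale in Holstein at 2 h (FDR 0.0207), where all 4 animals were 1.16-fold to 1.23-fold above their 0 h value. In Angus the 2 h change was 0.13 ± 0.13 (FDR 0.661).

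Within breeds, 6 of the 9 members tested in Holstein passed at 2 h (ARC, EGR2, EGR3, IER2, IER3 and NAB2), against 3.17% of all rows, and 3 of the 7 tested in Angus (EGR3, IER3 and NAB2), against 2.99% of rows. ARC, EGR2 and EGR3 in Holstein and EGR3 in Angus met the CPM filter only through 2 h samples, where they were high. ARC and EGR2 were not tested in Angus, so the 2 counts do not compare the breeds. ARC rose in all 4 Angus animals as well. At 8 h the members past the threshold were EGR1 and IER3 in both breeds, of 6 tested in each, where 2.52% of rows passed in Holstein and 0.863% in Angus. By FDR alone, which 22.0% of rows met at 2 h with both breeds, 5 members passed, and at 8 h 3 members did against 12.8% of rows, while 8 h against 2 h gave 6 members against 23.8% of rows. Within Holstein, FDR alone gave 8 members at 2 h (17.2% of rows) and 3 at 8 h (14.7% of rows), and within Angus 4 at 2 h (13.8% of rows) and 3 at 8 h (3.9% of rows).

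**Figure D3:**
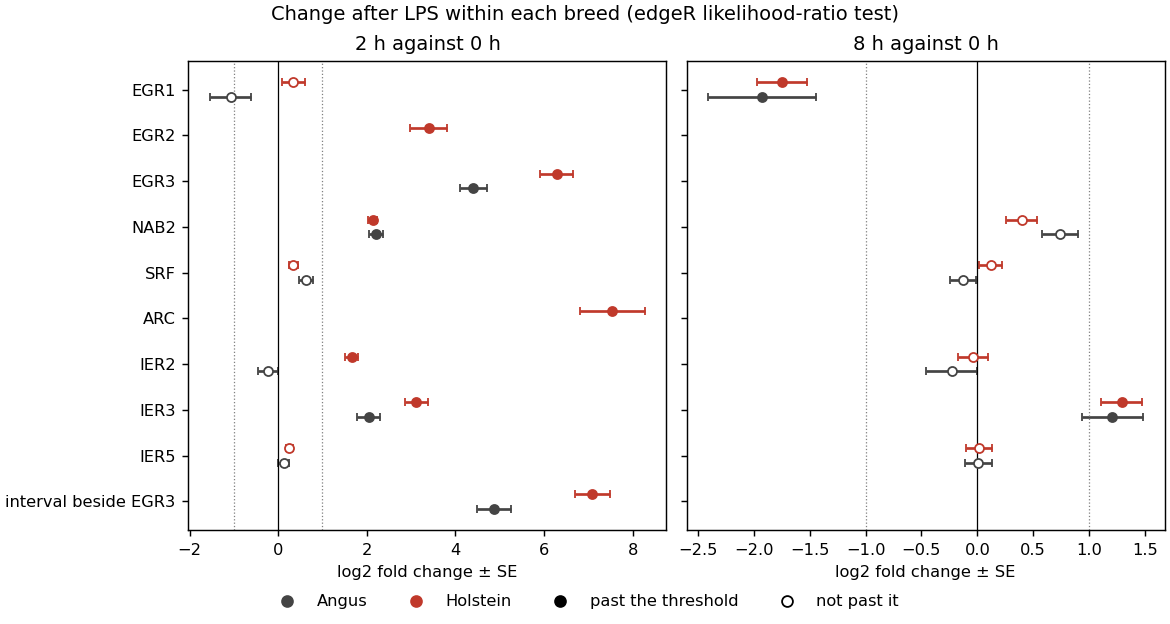
Log2 fold change ± SE against 0 h within Holstein (red) and Angus (grey) at 2 h and 8 h, from edgeR's likelihood-ratio test. Filled points passed the threshold, open points did not, dotted lines mark 2-fold, and members under the CPM filter have no point. EGR3 and its interval lie farthest right in Angus at 2 h and ARC in Holstein, the NAB2 points of the breeds nearly coincide, and EGR1 is the only member past the threshold to the left, at 8 h.

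In the comparison of the breeds at 2 h, 4 of the 9 members were higher in Holstein past the threshold, against 4.46% of all rows, and none was lower. EGR3 was 2.09 ± 0.26 higher on the log2 scale (FDR 8.25e-12), IER2 1.37 ± 0.16 (FDR 2.97e-14), ARC 1.36 ± 0.39 (FDR 0.00622) and IER3 1.16 ± 0.31 (FDR 0.00328), and the EGR3 interval was 1.92 ± 0.29 higher (FDR 2.59e-08). By FDR alone SRF joined them in the other direction, which made 5 members against 20.1% of rows. For EGR3, IER2 and IER3 no Angus sample reached the lowest Holstein sample, whereas for ARC Angus animal 2 (2.39 CPM) was above Holstein animal 3 (2.00 CPM). IER3 fell just under 2-fold without Angus animal 4 (0.98) or without Holstein animal 4 (0.89).

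A pair of members had a wide spread within Angus at 2 h. EGR1 was 0.49 ± 0.40 higher in Holstein on the log2 scale (FDR 0.417) and EGR2 1.37 ± 0.75 (FDR 0.197). Angus animal 3 had the highest Angus level at 2 h of EGR1, EGR2, EGR3 and IER3, and the lowest of NAB2, SRF and IER5. Without it, EGR1 was 1.06 higher in Holstein (FDR 0.000305) and EGR2 2.96 higher (FDR 1.26e-09), which would bring the members past the threshold to 6. Its library is the one 2 h sample called counted otherwise, and the part of that in its levels was not tested.

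At 0 h none of the 6 members tested differed between breeds past the threshold (edgeR), where 3.83% of rows did. The count was also 0 by the quasi-likelihood F test and by DESeq2, and 2 members had an unadjusted p under 0.05, as had 5444 of all 20385 rows. The 2 members were EGR1, lower in Holstein by 0.92 ± 0.35 on the log2 scale (FDR 0.057), and IER2, lower by 0.52 ± 0.22 (FDR 0.103). EGR1 crossed the threshold without Angus animal 2, Angus animal 3 or Holstein animal 4, at -1.09, -1.12 and -1.16. At 8 h none of 6 passed against 3.25% of rows, by any of the 3 tests, and 1 had an unadjusted p under 0.05 (IER2, -0.33 ± 0.15, FDR 0.112). Of all 20679 rows at 8 h, 6068 had such a p. Among the low rows, the 8 h breed difference of EGR2 was described above, and EGR3 was higher in Holstein by 0.16 on the log2(CPM + 1) scale with no overlap (exact permutation test, p = 0.0286, unadjusted). Fitted in edgeR without the filter, EGR3 was 0.97 higher (FDR 0.111) and did not pass.

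**Figure D4:**
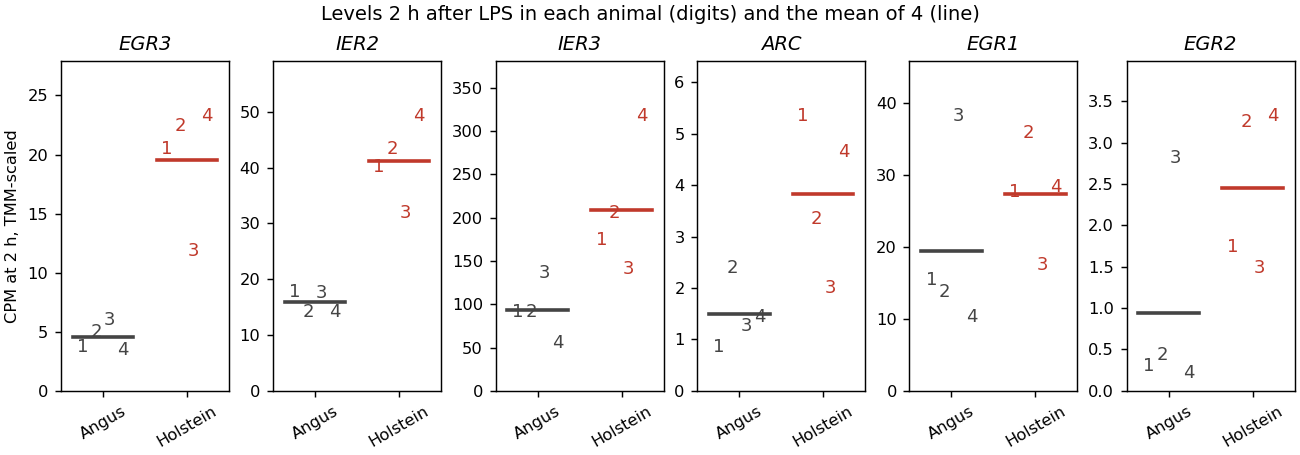
CPM at 2 h (TMM-scaled, axis from 0) of 6 genes in Angus (grey) and Holstein (red), with each digit at the level of the animal of that number and a line at the mean of 4. EGR3, IER2 and IER3 do not overlap between breeds, ARC overlaps by 1 animal of each breed, and Angus animal 3 lies within the Holstein range of EGR2 and above it for EGR1.

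The response to LPS at 2 h differed between breeds past the threshold in 2 of 7 members tested (IER2 and EGR3), against 0.278% of all rows. For EGR3 the difference of the responses was 1.90 ± 0.48 on the log2 scale (FDR 0.0236) and for its interval 2.23 ± 0.57 (FDR 0.0257). The EGR3 result was less firm than that of IER2, since its FDR was 0.249 by the quasi-likelihood F test and rose to between 0.0566 and 0.299 without Angus animal 1, 2 or 4 or Holstein animal 1 or 2. For IER3 the difference of 1.09 ± 0.40 had an FDR of 0.466, but with the animals as a replicate block it was 1.10 (FDR 0.000154). For EGR1 it was 1.42 ± 0.57 (FDR 0.707), and 2.17 (FDR 0.000539) without Angus animal 3. ARC and EGR2, tested on the log2(CPM + 1) scale, had differences of 0.98 (exact permutation test, p = 0.0571) and 1.00 (exact permutation test, p = 0.0857). At 8 h none of the 6 members that could be fitted had a different response, against 0.0982% of rows, by edgeR's likelihood-ratio and quasi-likelihood tests or by DESeq2, and none had an unadjusted p under 0.05. Such a p was found for 597 of all 20368 rows. Of the rows under the filter, EGR2 (above) and the EGR3 interval had an exact p under 0.05 for their 8 h change, the interval with a difference of 0.10 on the log2(CPM + 1) scale (exact permutation test, p = 0.0286, unadjusted), at 7 to 10 counts a sample in Angus and 11 to 25 in Holstein at 8 h. Fitted in edgeR without the filter, neither passed (FDR 0.171 for EGR2 and 1.0 for the interval).

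Other genes of the pathway were counted in 3 lists. Over all rows tested, 2.82% passed at 2 h and 1.42% at 8 h against 0 h with both breeds, and 4.46% between breeds at 2 h. At these shares, 0 or 1 call among 16 or 17 genes is not a result about the list. Of 18 ERK kinases, SRF cofactors and EGR partners, 16 were tested at 2 h with both breeds and 1 passed: NAB1, the paralog of NAB2, at 1.14 ± 0.11 on the log2 scale (FDR 2.34e-20). The median log2 fold change of the list was 0.01, against -0.00 over all rows. Of 17 cytoskeletal targets of SRF (such as actins and tropomyosins) all were tested and 0 passed at 2 h, with a median of 0.11. By the quasi-likelihood F test and DESeq2 the count was also 0, and 6 had an unadjusted p under 0.05, as had 6128 of all 20157 rows. Of 30 other immediate-early genes, 12 passed at 2 h, 10 upward and 2 downward, with a median of 0.47. The 3 with the largest change were FOSB, an AP-1 subunit (6.44 ± 0.37, FDR 6.94e-41), HBEGF, a growth factor of the EGF family (3.09 ± 0.34, FDR 1.24e-15), and NR4A1, an orphan nuclear receptor (2.87 ± 0.26, FDR 2.44e-23). At 8 h against 0 h, 4 of 28 of that list passed (3 upward and 1 downward), 1 of the 16 partners (RPS6KA1, a kinase downstream of ERK, which fell by 1.00 ± 0.33) and 0 of the 17 cytoskeletal genes. Between breeds at 2 h, 7 of 30 other immediate-early genes passed (6 higher and 1 lower in Holstein), and none of the 16 partners or the 17 cytoskeletal genes. For both of the latter lists the quasi-likelihood F test and DESeq2 gave 0 as well, with 3 and 6 genes at an unadjusted p under 0.05. Of all 20184 rows, 6470 had such a p.

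The rows most like each member over the 24 samples, among 13674 rows with a symbol, are given as a description, since all points share the same libraries and most of the likeness lies between the hours. For EGR3 they were ZBTB46 (Pearson correlation of log2(CPM + 1) levels 0.990) and FOSB (0.984), and for ARC they were EGR3 itself (0.979) and ZBTB46 (0.976). For NAB2 they were LOC510442 (0.980) and WDR37 (0.962), and for IER3 they were NFKBIZ (0.969) and ZC3H12A (0.961), both regulators of NF-κB signalling. EGR2 was most like STAT5A (0.947) and TNFAIP2 (0.941), SRF most like ELK1 (0.920) and JAG2 (0.917), and IER2 most like ZFP36L2 (0.889) and TMEM88 (0.853). EGR1 had PRKD1 (0.831) and EGFR (0.818), and IER5 had VAMP2 (0.832) and ZBTB42 (0.813). Among the 36 pairs of members the correlation ran from 0.036 (EGR1 and IER3) to 0.979 (EGR3 and ARC), with a median of 0.569. EGR1 had a correlation of 0.328 with EGR3 and 0.180 with EGR2.

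Rows without a symbol touch the other members too, on the side where the gene starts and on the side where it ends. The correlation with the gene over 24 samples was 0.968 for the end-side row of ARC (307 counts against 1603), 0.955 for that of EGR2 (811 against 1634) and 0.933 for that of SRF (17431 against 83581). The end-side row of SRF was 0.79 ± 0.13 higher on the log2 scale at 2 h (FDR 3.98e-08), beside the 0.50 of SRF. For the end-side rows of EGR1, NAB2, IER3, IER5 and IER2 the correlation was 0.481, 0.209, 0.181, -0.146 and -0.296. On the start side it was highest for SRF (0.788), EGR1 (0.75) and EGR3 (0.626, on 42 counts). The end-side row of EGR1, 28476 bases long, held 63772 counts against 40008 on EGR1 and was at a mean of 31.4, 38.6 and 31.2 CPM at 0, 2 and 8 h. Its log2 fold change was 0.30 ± 0.10 at 2 h (FDR 0.0261) and -0.01 ± 0.10 at 8 h (FDR 0.962), so it did not share the 8 h fall of EGR1.

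**Figure D5:**
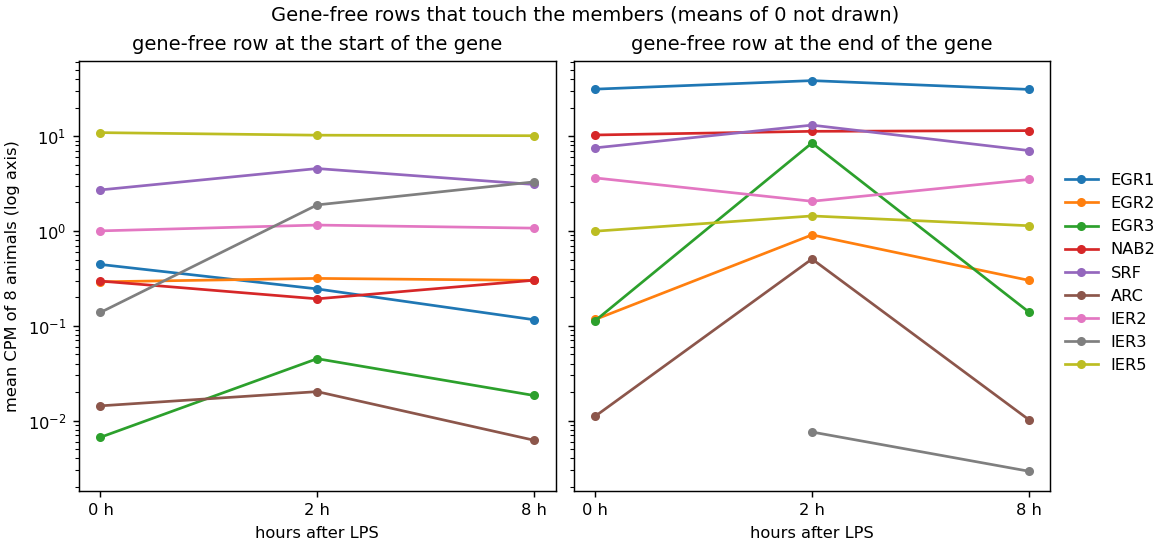
Mean CPM of 8 animals (log axis) at 0, 2 and 8 h of the rows without a gene symbol that touch each member, at the side where the gene starts (left) and where it ends (right), with 1 colour per member. The end-side rows of EGR3, EGR2 and ARC peak at 2 h, at 8.48, 0.910 and 0.507 CPM, while the start-side rows of the same genes stay at or under 0.316 CPM.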

How the data were processed

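Polyadenylated RNA of 24 cultures was sequenced, and each sample pooled the lysates of duplicate wells. Per the file headers and the study's methods, the authors processed reads with CASAVA 1.7 (per the labels), aligned them to UMD v3.1 with NextGENe 2.3.4, requiring over 85% of a read to align, and deposited raw read counts per row without normalization. The deposited tables also give mean coverage (signal) per row, used only to compute covered bases per count. Total counts were 1.50 to 1.71 times the matched reads, so a read can be counted more than once. Whether this falls on the same row or on different rows was not tested. Precision follows from these depths, and p-values rest on the spread between 4 animals a breed. Main fits over hours held no animal term, so samples of the same animal were treated as independent. The LPS fits with the breeds combined also held no breed term, so breed differences were part of their spread.

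Counts were tested in edgeR 4.0.16 (R 4.3.3) with the likelihood-ratio test on rows at 1 CPM or more in at least 50% of the samples compared, with Benjamini-Hochberg adjustment over all rows, as in the study's methods. TMM factors were chosen here, since a scaling is not given in the sources used here. Rows under the filter were compared on log2(CPM + 1) by two-sided exact permutation (4 against 4 between breeds, sign flips over animals for LPS), with unadjusted p. The interaction of breed and LPS was tested on 16 samples. Levels use 1 TMM scaling of all 24 samples. The labels number the animals within a breed, and same-numbered samples deviated together over the hours (correlation over 22069 rows 0.444 to 0.735, 24 pairs), so the animal as a replicate block was an alternative. The others were RLE size factors, no filter, filterByExpr, the quasi-likelihood F test, DESeq2 1.42.0, rows with a symbol only, leaving out each animal or the 4 samples counted otherwise, FDR alone and a pseudocount of 0.1 CPM. Library size from matched reads and the quasi-likelihood test with the block were chosen after seeing the data. The test was checked on simulated counts of independent samples, with known changes in rows above the CPM filter. That check does not cover likeness between samples of the same animal or rows near the filter.

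The members, the gene lists and the rule for named genes (the 3 largest changes past the threshold of each list, and the 2 rows most like each member) were chosen with earlier results of these data known. RPS6KA1 was named after its values were seen. Gene IDs were matched by symbol in a RefSeq table of assembly ARS-UCD2.0, whose coordinates were not used. No sequence was used here. 1 of the cell type markers chosen is not reported here.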

Additional observations from a re-analysis of the deposited data

Results flagged for a closer look

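Of 60 groups of 4 samples examined (6 groups for each member and the EGR3 interval), 4 held a sample far from the others by Dixon's criterion, which chance gives in about 1 group of 20. EGR2 in Angus at 2 h was at 2.81 CPM in animal 3 and at 0.215 to 0.431 CPM in the other 3 animals. SRF in Holstein at 8 h was at 43.6 CPM in animal 1 and 36.6 to 37.6 CPM in the others. ARC in Holstein at 0 h was at 0.0441 CPM in animal 4, which is 2 counts, and 1 count in each of the others. IER5 in Angus at 8 h was at 19.1 CPM in animal 4 and 22.5 to 23.0 CPM in the others.

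The response at 2 h differed between the breeds for 3 rows by the interaction test in edgeR. It was larger in Holstein by 1.90 on the log2 scale for IER2, by 1.90 for EGR3 and by 2.23 for the gene-free interval that touches EGR3, and all 4 Holstein animals were above all 4 Angus animals in the fold from their own 0 h value for each of the 3. IER2 kept the call in all 18 alternatives, whereas EGR3 lost it in 6 of 18 (FDR 0.249 by the quasi-likelihood F test) and the interval in 8 of 17 (FDR 0.27). At 8 h, the change from 0 h was higher in Holstein for EGR2 by 0.99 and for the interval by 0.10 on the log2(CPM + 1) scale (exact permutation test, p = 0.0286, the smallest possible and unadjusted), but edgeR without the filter or with filterByExpr called neither (FDR 0.171 and 0.154 for EGR2, 1.0 in both for the interval).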

How the results depend on the processing

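With every setting tried, EGR3, IER3 and NAB2 stayed past the threshold at 2 h against 0 h with both breeds, within Holstein and within Angus, as did the 2 h breed differences of EGR3, IER2 and ARC and the different 2 h responses of IER2. Other counts of members past the threshold moved. At 2 h with both breeds the count of 3 became 5 by FDR alone and 3 to 5 with 1 animal left out, the highest without Angus animal 1. ARC was under the filter there in the main fit, while the study lists it as raised at 2 h with the breeds combined. It was called without a filter, with filterByExpr, with matched reads, without the samples counted otherwise and without Angus animal 1. In Angus alone 4 alternatives fitted the rise of ARC, at 4.79 to 4.97 (FDR 9.42e-20 or less), and matched reads called it. At 8 h in Angus the count of 2 became 0 by the quasi-likelihood F test and 1 to 2 with 1 animal left out (1 without animal 1, 3 or 4). Between breeds at 0 h it was 0 to 1 with 1 animal left out (EGR1, without Angus animal 2 or 3 or Holstein animal 4) and 1 with library size from matched reads, which also gave 1 at 8 h (EGR2). For the 2 h interaction it was 1 by the quasi-likelihood F test and 1 to 3 with 1 animal left out. The single RPS6KA1 call among the pathway partners at 8 h was lost (0) by the quasi-likelihood F test, with rows with a symbol only, without the samples counted otherwise, with matched reads, and without Angus animal 1, 2 or 4 or Holstein animal 2. Without a filter EGR2 was 2.73 higher at 2 h with both breeds (FDR 1.02e-05) but at an average level of 1 CPM or less, and with a pseudocount of 0.1 CPM the ARC interaction at 2 h was 1.60 (exact permutation test, p = 0.0286). The 8 h breed differences of EGR3 and ARC and the 8 h interactions of EGR2 and the EGR3 interval, called by the exact test, were not called by edgeR without a filter.

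The animal as a replicate block changed the call of EGR1 at 2 h in Angus (-1.17, but not by the quasi-likelihood F test with the block, -1.16, FDR 0.0985), of the IER3 interaction at 2 h (1.10) and of EGR2 at 8 h against 2 h (-1.57, FDR 4.17e-07, against -1.28, FDR 0.225, without it), and no other call given here. With the quasi-likelihood F test the interaction of the EGR3 interval at 2 h was 2.25 (FDR 0.27) without the block and 2.31 (FDR 0.0557) with it, and 8 of its 17 alternatives lost the call. The direction reversed only for 7 small log2 changes, none past the threshold. SRF at 8 h was 0.0314 with matched reads and -0.0315 to 0.0504 with 1 animal left out, and the end-side row of EGR1 at 8 h was 0.0321 and -0.0551 to 0.0355. IER2 at 8 h in Holstein was 0.0053 without the samples counted otherwise, 0.0098 with matched reads and -0.1248 to 0.061 with 1 animal left out, and IER2 at 2 h in Angus ran from -0.3936 to 0.0014. The 8 h change of IER5 ran from -0.0943 to 0.0766 in Holstein and from -0.046 to 0.0768 in Angus, and the 2 h breed difference of NAB2 from -0.1035 to 0.026. The cause was not tested. Among single-row values that are neither printed nor plotted, 404 alternatives kept the call, 30 reversed a value and 1 added a call (EGR2 at 8 h against 0 h in Holstein, 2.49 with matched reads). Depth limits ARC at 0 and 8 h, EGR2 in Angus and EGR3 with its interval at 0 and 8 h, which rest on few counts.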
